A study of Mus musculus with 12 samples.

Results

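The p53 death effectors are 10 genes through which the transcription factor p53 is known to start cell death: Bbc3, Pmaip1, Bax, Fas, Tnfrsf10b, Apaf1, Pidd1, Perp, Aen and Dffb. They were taken by gene symbol from a table of 54532 genes, where all 10 were found, and all 10 passed the filter on low counts. Poly(A) RNA was sequenced from E14 mouse embryonic stem cells, a line kept on gelatin with leukaemia inhibitory factor and a pair of kinase inhibitors. Wild-type (WT), p53 knockout (p53 KO) and Dux knockout (Dux KO) cells were compared after 6 h in 1 uM doxorubicin followed by drug-free medium, or after 6 h in DMSO vehicle. Each of the 6 groups has 2 libraries. Libraries of a knockout come from 2 numbered lines, so a knockout group's spread includes what sets its lines apart, whereas WT is a single named line. How long cells stayed in drug-free medium is not known here.

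Doxorubicin poisons topoisomerase II and leaves breaks in DNA, and p53 then binds paired half-sites near its target genes and raises their transcription. Among those targets, Bbc3 (PUMA) and Pmaip1 (NOXA) are BH3-only proteins that bind the anti-death BCL2 proteins, Bax forms pores in the outer mitochondrial membrane, and Apaf1 builds the apoptosome on released cytochrome c. Fas and Tnfrsf10b are death receptors of the cell surface. Pidd1 is the scaffold of a complex that activates caspase-2, Perp is a membrane protein, Aen is a nuclease, and Dffb is the nuclease that cuts DNA between nucleosomes once its inhibitor Dffa is cleaved.

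RefSeq promoter windows on GRCm38.p6, from 250 bases before to 50 bases after an annotated start, were found for 7 of the 10 genes (10 windows) and searched for the p53 half-site, which reads the same on both strands. Pmaip1, Tnfrsf10b and Perp were not among them. An exact half-site was present for Bax and Aen, beside 9.55% of the 27025 genes with a window and 8.36% of the 32851 windows. A pair of half-sites with an intact core, up to 2 mismatches outside it and a gap of at most 13 bases was present for Bax only, beside 2.47% of genes and 2.12% of windows. With up to 3 mismatches, a limit chosen after the first search had been seen, Bbc3 and Aen also held a pair, beside 7.63% of genes and 6.72% of windows. Matches are shown because p53 acts through such sites. Half-sites are in capitals. The Bbc3 stretch, at chr7:16309446-16309545 on the plus strand, lies before the first of 3 RefSeq starts and inside the gene as GENCODE draws it. The Bax stretch, at chr7:45467039-45467148 on the minus strand, lies before the start. At up to 3 mismatches Bax held a further pair, not shown, with a gap of 11 bases, beginning 5 bases before the start. The Aen pair, at chr7:78895937-78895956 on the plus strand, begins 10 bases past one RefSeq start and 121 bases before another.
Bbc3: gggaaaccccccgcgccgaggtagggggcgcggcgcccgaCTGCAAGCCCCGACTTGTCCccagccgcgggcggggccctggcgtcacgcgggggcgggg
Bax: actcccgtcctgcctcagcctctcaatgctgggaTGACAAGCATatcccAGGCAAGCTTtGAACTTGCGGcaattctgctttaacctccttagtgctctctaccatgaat
Aen: GGGCTTGTCCGGGCAAGGAG
The Bbc3 pair holds 3 mismatches and no gap and begins 97 bases before that start. In Bax, 3 half-sites stand in a row from 216 bases before the start, with gaps of 5 and 1 bases, and the middle one is exact. A match of letters is a description of the sequence and does not show that p53 binds there.

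Library totals ran from 23270358 to 56795858 counts. The deposited counts of Dux KO vehicle library 2 are identical to those of drug library 1 of the same knockout in all 54532 genes, so that column was left out of the tests and 11 libraries were fitted. For the lone Dux KO vehicle library the spread of the other groups was assumed. Values given below for Dux KO vehicle line 2 were recovered from its FPKM column, which is its own. Trp53, the gene of p53, was at 159 to 193 CPM (counts scaled to library size after TMM correction, the usual edgeR unit) in WT vehicle and 133 to 135 in WT with drug, 72.4 and 39.8 in p53 KO vehicle, and 95.5 and 42.6 in p53 KO with drug. Its transcript was thus lower than in WT under the same treatment but present in the knockout, and more abundant in line 1 than in line 2. Duxf3, the row that holds Dux, had 670 and 685 counts in WT with drug and 0 in all 4 Dux KO libraries. The 8 pluripotency markers summed to 4128 to 4152 CPM in WT vehicle and 633 to 726 in WT with drug, 3642 to 4026 and 1784 to 2334 in p53 KO, and 3849 to 4611 and 1551 to 1717 in Dux KO. Of 7 fibroblast markers, Col3a1, Dcn and Lum had at most 10 counts in any library. Of the 5 tested, drug raised 3 and lowered 1 in WT, beside 29.0% and 23.4% of all genes. It raised 2 and lowered 0 in Dux KO, beside 14.5% and 11.9%. In p53 KO 0 were called, beside 9.31% higher and 8.09% lower. The 7 markers summed to 10.9 to 19.9 CPM in the vehicle libraries and 24.8 to 31.0 in the drug libraries. The 6 markers of trophectoderm and epithelium summed to 62.8 to 66.7 CPM in WT vehicle and 97.5 to 130 in WT with drug, 62.0 to 118 and 70.6 to 98.2 in p53 KO, and 48.8 to 68.6 and 73.6 to 88.9 in Dux KO. The 6 markers of the 2-cell stage rose from 3.07 to 3.33 CPM in sum to 1169 to 1405 in WT with drug, measured 23.4 to 23.5 and 16.9 to 54.9 in p53 KO, and were at most 0.218 in Dux KO. In bulk RNA, more cells with a transcript and more transcript per cell cannot be told apart, and the part of any change in cell make-up in the results below was not tested.

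**Figure D1:**
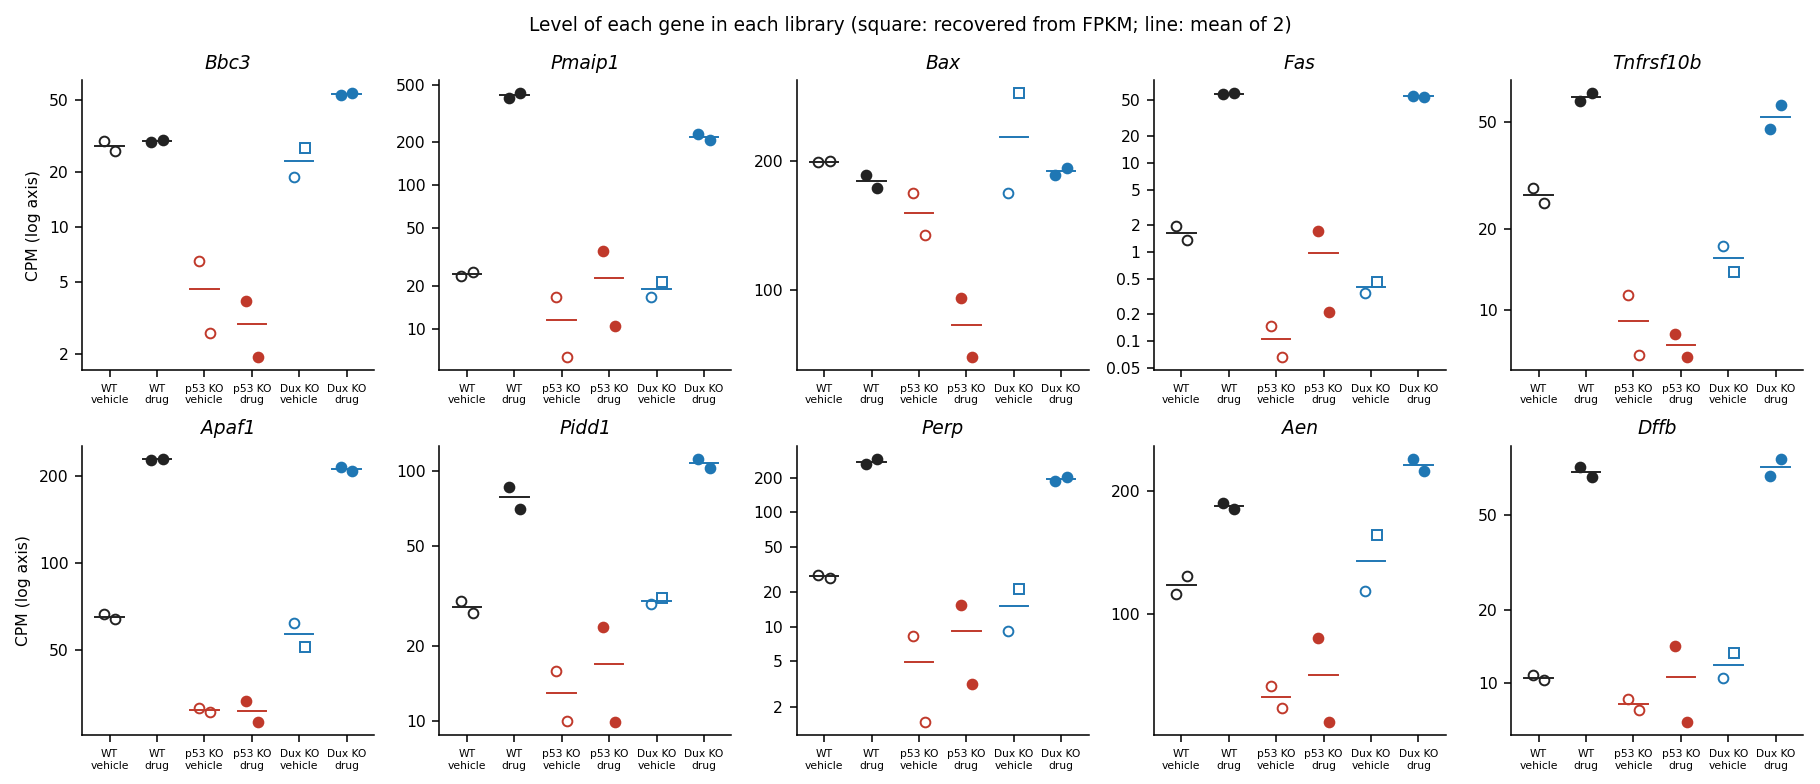
Level of each of the 10 genes in CPM (log axis) in each of the 12 libraries, by genotype and treatment. Open symbols are vehicle, filled symbols drug, the square is the library recovered from FPKM and the line is the mean of 2 libraries. For each gene both p53 KO drug libraries lie below both WT drug libraries, and the share of all genes that do so was not counted.

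In WT cells, doxorubicin raised 8 of the 10 genes, by 1.56-fold (Aen) to 35.9-fold (Fas), and none fell. Bbc3 and Bax were the exceptions. Over all 28643 genes tested with edgeR's quasi-likelihood test, 29.0% were called higher and 23.4% lower at an adjusted p under 0.05. The median log2 fold change was 1.63 over the 10 genes and 0.13 over all genes. The plot of responses by genotype shows these values with their intervals.

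The BH3-only genes went apart. Bbc3 (ENSMUSG00000002083, GRCm38 chr7:16308393-16318205) measured 29.7 and 26.2 CPM in WT vehicle and 29.4 and 30.1 CPM with drug. The groups overlapped, and the log2 fold change was 0.09 ± 0.38 (SE), with a 95% interval of the fold from 0.590 to 1.93, and edgeR adjusted p = 0.854. Pmaip1 (ENSMUSG00000024521) measured 23.5 and 24.8 CPM in vehicle and 406 and 435 CPM with drug, a rise of 17.4-fold (95% interval 7.11 to 42.7, edgeR adjusted p = 0.000389). The Pmaip1 groups lay far apart.

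The pore former Bax (ENSMUSG00000003873, GRCm38 chr7:45461697-45466898) measured 199 and 200 CPM in vehicle and 186 and 173 CPM with drug. Both drug libraries were lower, yet the fold was 0.900 (95% interval 0.695 to 1.17, edgeR adjusted p = 0.463), and the test did not pass. Bax shares 52.0% of its exon bases with Gm45808, an annotated gene on the same strand with 1284 to 6750 counts, so how reads were split between them is uncertain. Apaf1, the core of the apoptosome (ENSMUSG00000019979, GRCm38 chr10:90989311-91082770), measured 66.4 and 63.9 CPM in vehicle and 227 and 228 CPM with drug. Its rise of 3.49-fold (95% interval 2.89 to 4.22, edgeR adjusted p = 1.12e-05) had the narrowest interval of the 10 genes on the log2 scale.

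Both death receptors rose. Fas (ENSMUSG00000024778, GRCm38 chr19:34290666-34327772) had 50 and 36 counts in vehicle and 1817 and 1800 counts with drug, which is 1.94 and 1.35 CPM against 58.5 and 59.8 CPM. The fold was 35.9 (95% interval 14.2 to 91.2, edgeR adjusted p = 0.000141). Tnfrsf10b, the mouse TRAIL receptor (ENSMUSG00000022074, GRCm38 chr14:69767472-69784411), measured 28.4 and 24.98 CPM in vehicle and 60.0 and 63.8 CPM with drug, a rise of 2.32-fold (95% interval 1.60 to 3.36, edgeR adjusted p = 0.00257). Fas, with 36 to 50 counts in vehicle, started far lower than Tnfrsf10b.

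Pidd1 (ENSMUSG00000025507, GRCm38 chr7:141438113-141444025) measured 30.3 and 27.0 CPM in vehicle and 86.1 and 70.2 CPM with drug, a rise of 2.73-fold (95% interval 1.55 to 4.79, edgeR adjusted p = 0.00871). Perp (ENSMUSG00000019851, GRCm38 chr10:18845020-18857073) measured 28.6 and 26.9 CPM in vehicle and 263 and 294 CPM with drug, a rise of 10.04-fold (95% interval 3.09 to 32.6, edgeR adjusted p = 0.00549). The 4 WT libraries of Perp lay in 2 tight pairs, and the interval rests on a spread estimated over all groups.

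Both nucleases rose, Dffb the more. Dffb (ENSMUSG00000029027, GRCm38 chr4:153964449-153975126) measured 10.7 and 10.2 CPM in vehicle and 79.3 and 71.9 CPM with drug, a rise of 7.21-fold (95% interval 4.53 to 11.5, edgeR adjusted p = 8.29e-05). Aen (ENSMUSG00000030609, GRCm38 chr7:78895854-78911209) measured 112 and 124 CPM in vehicle and 187 and 181 CPM with drug, a rise of 1.56-fold (95% interval 1.14 to 2.13, edgeR adjusted p = 0.0229). The groups of both genes were apart in all 4 libraries.

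Without WT vehicle library b, 5 genes were called: Pidd1 (edgeR adjusted p = 0.065), Perp (0.0503) and Aen (0.0707) were lost. Aen was also lost without any other single WT library (edgeR adjusted p = 0.0883 to 0.126), and Pidd1 without WT drug library a (0.0509).

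Levels can be compared between genes only per length. Per kilobase of exon, Bax led in WT vehicle at 127 CPM per kb, followed by Aen at 20.3, Perp at 14.2, Bbc3 at 13.1, Pmaip1 at 8.83, Apaf1 at 7.22, Pidd1 at 6.33, Tnfrsf10b at 4.90, Dffb at 3.65 and Fas at 0.797. In WT with drug Pmaip1 stood at 154 CPM per kb, Perp at 143 and Bax at 114, and the other 7 genes between 11.4 (Tnfrsf10b) and 31.7 (Aen). The ranges of the 2 libraries overlapped between Perp and Pmaip1 and between Dffb and Apaf1 in the drug group, and between Perp and Bbc3 in the vehicle group. On the authors' FPKM, which divides by the whole gene span, Bax was again first in vehicle at 39.0 and Pmaip1 first with drug at 63.2, and Fas was last in both at 0.0455 and 1.67. The middle of the order depends on the length used.

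**Figure D2:**
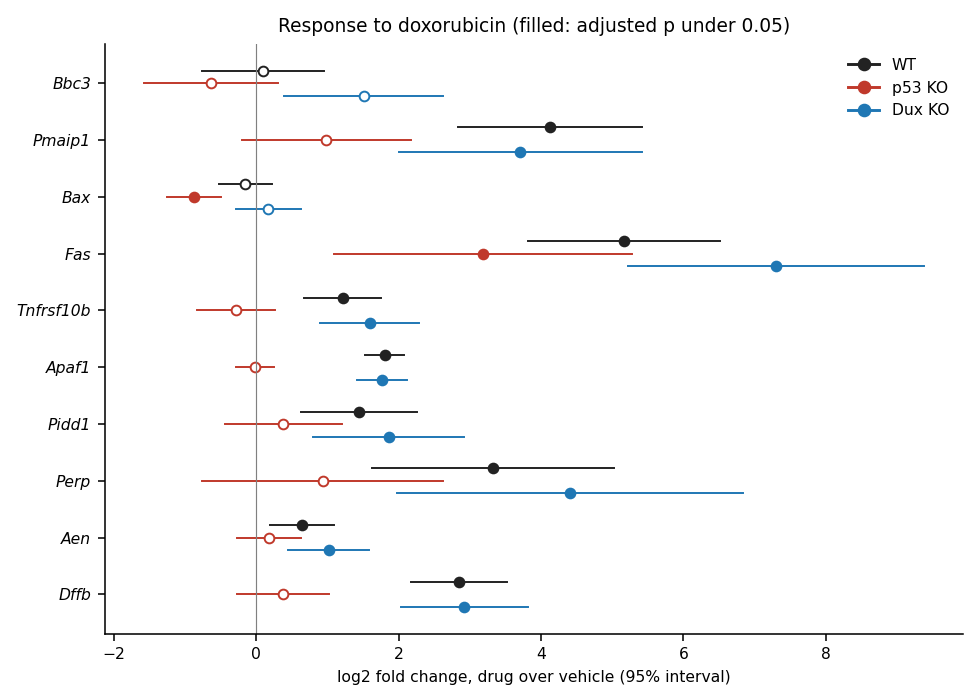
Response to doxorubicin of each gene as log2 fold change, drug over vehicle, with its 95% interval, in WT, p53 KO and Dux KO cells. Filled points have an adjusted p under 0.05: 8 genes in WT, Fas and Bax in p53 KO, and 8 genes in Dux KO.

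In cells without p53, of the 10 genes Fas was called higher and Bax lower after the drug, and the other 8 did not pass the test, while 9.31% of all genes were called higher and 8.09% lower. The median log2 fold change was 0.28 over the 10 genes and 0.18 over all genes. The difference between the p53 KO and WT responses, tested as an interaction, was called negative for 4 genes and positive for none, beside 10.3% and 9.90% of all genes.

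Apaf1 measured 31.6 and 30.5 CPM in p53 KO vehicle and 33.3 and 28.1 CPM with drug, a fold of 0.989 (95% interval 0.822 to 1.19). Its response was lower than in WT by a log2 difference of -1.82 ± 0.17 (SE, edgeR adjusted p = 0.000363). Dffb measured 8.55 and 7.72 CPM in p53 KO vehicle and 14.3 and 6.85 CPM with drug, so line 1 was higher with drug and line 2 lower. Its interaction was -2.47 ± 0.41 (SE, edgeR adjusted p = 0.00352).

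Pmaip1 measured 16.6 and 6.39 CPM in p53 KO vehicle and 35.0 and 10.4 CPM with drug. Both lines were higher with drug, by 2.11 and 1.63 times within the line, and the interaction was -3.14 ± 0.74 (SE, edgeR adjusted p = 0.0181). Tnfrsf10b measured 11.4 and 6.79 CPM in p53 KO vehicle and 8.18 and 6.71 CPM with drug, and its interaction was -1.50 ± 0.34 (SE, edgeR adjusted p = 0.0152). Leaving out any 1 WT library ended the Pmaip1 call (edgeR adjusted p = 0.0516 to 0.0748), and leaving out WT vehicle b or WT drug b did so for Tnfrsf10b (0.071 and 0.0552).

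Fas was scarce in p53 KO, with 4 and 2 counts in vehicle and 50 and 6 counts with drug. The rise in log2 was 3.18 ± 0.93 (SE, edgeR adjusted p = 0.0452). Within line 1 the ratio was 11.9 (95% counting interval 4.35 to 45.2) and within line 2 it was 3.22 (0.575 to 32.6). These intervals treat each count as an independent read, which the counts are not, so they may be too narrow. The call rests on line 1. Without p53 KO drug library 1 the log2 fold change was 1.01 (edgeR adjusted p = 0.382), and leaving out any 1 of the other libraries except p53 KO drug library 2 also ended the call (0.0686 to 0.157). Even so, 1.73 and 0.214 CPM with drug compare with 58.5 and 59.8 CPM in WT with drug.

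Bax, which did not pass the test in WT, fell in p53 KO. It measured 169 and 135 CPM in vehicle and 95.9 and 69.9 CPM with drug, with within-line ratios of 0.568 and 0.519, and the log2 fold change was -0.87 ± 0.17 (SE, edgeR adjusted p = 0.0104). Its interaction was -0.72 ± 0.23 (SE) and did not pass (edgeR adjusted p = 0.0595). On log2(FPKM + 1) the Bax response was -0.55 (limma adjusted p = 0.123).

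The remaining 4 genes did not pass in p53 KO. Bbc3 measured 6.51 and 2.60 CPM in vehicle and 3.88 and 1.93 CPM with drug, so it was lower with drug in both lines. Perp measured 8.33 and 1.46 CPM in vehicle and 15.4 and 3.14 CPM with drug, so it was higher with drug in both lines. Pidd1 measured 15.9 and 9.99 CPM in vehicle and 23.8 and 9.92 CPM with drug, and Aen measured 66.9 and 59.0 CPM and 87.7 and 54.6 CPM. For Pidd1 and Aen line 1 was higher with drug (ratios 1.50 and 1.31), whereas line 2 was at 0.993 and 0.925.

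The 2 p53 KO lines differed in level. Line 1 was above line 2 for all 10 genes under both treatments. The share of all genes that were higher in line 1 was not counted. In vehicle the ratio of line 1 to line 2 was 5.69 for Perp, 2.60 for Pmaip1, 2.51 for Bbc3, 2.20 for Fas and 1.03 for Apaf1. With drug it was 8.10 for Fas, 4.90 for Perp, 3.36 for Pmaip1 and 1.19 for Apaf1. The Trp53 transcript moved the same way, at 1.82 and 2.24 times, and its part in the difference was not tested. The plot of ratios within each knockout line shows the responses with this difference removed.

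**Figure D3:**
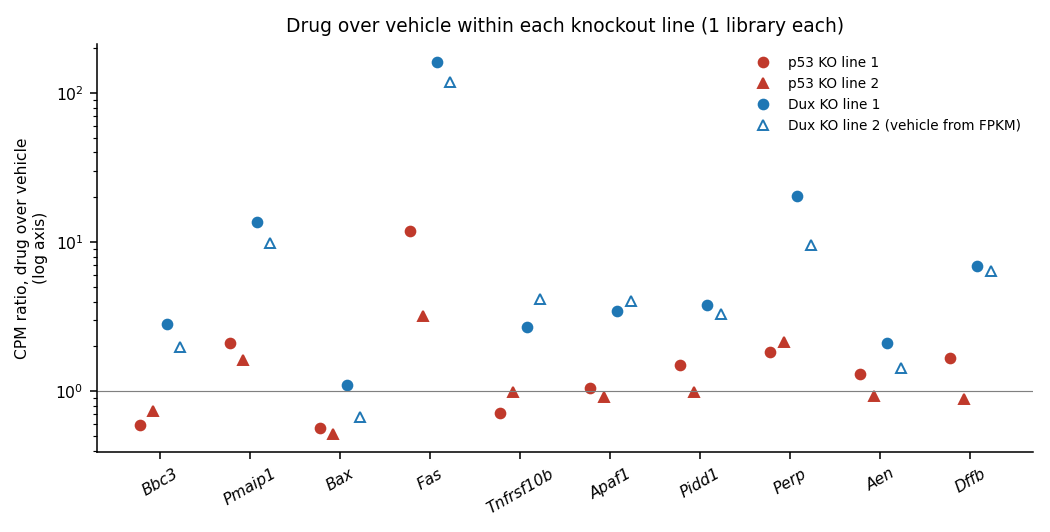
Ratio of CPM with drug to CPM with vehicle (log axis) for each gene within each knockout line, 1 library over 1 library. In p53 KO the ratios lie between 0.519 and 2.14 except for Fas at 11.9 and 3.22. In Dux KO they lie between 0.669 (Bax, line 2) and 161 (Fas, line 1).

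With the line as a block, since the line numbers pair the knockout libraries, the p53 KO response was called for 5 genes, 3 higher and 2 lower, beside 21.6% and 16.4% of all genes. Pmaip1 (log2 0.91, edgeR adjusted p = 0.000101) and Perp (0.95, 0.00018) joined Fas as higher, and Bbc3 (-0.62, 0.0122) joined Bax as lower. The interaction was then called negative for all 10 genes, beside 17.9% of all genes called negative and 19.8% positive, adding Perp (log2 -2.38, edgeR adjusted p = 6.81e-07), Fas (-2.07, 0.0382), Pidd1 (-1.14, 0.000808), Bax (-0.73, 0.000711), Bbc3 (-0.71, 0.0181) and Aen (-0.50, 0.0314). The block takes the difference in level between the lines of a knockout out of the spread. WT has no lines, so blocked p-values of a knockout against WT do not cover how its lines differ. The blocked fit has 3 residual degrees of freedom, none of them from Dux KO. With a lone Dux KO vehicle library, its Dux KO response is drug over vehicle in line 1 alone. With the recovered Dux KO library added to the blocked fit, the p53 interaction of Bbc3 and Aen no longer passed. Then 8 genes were called, beside 15.6% of all genes called negative and 16.7% positive.

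The genes were also compared between p53 KO and WT directly. Under vehicle, all 10 fitted values were negative and 3 passed the test, beside 0.747% of all genes called lower and 0.140% called higher. The median was -1.11 over the 10 genes and 0.01 over all genes. Bbc3 was lower by a log2 difference of -2.62 ± 0.41 (SE, edgeR adjusted p = 0.0259), Tnfrsf10b by -1.55 ± 0.24 (SE, 0.0259) and Apaf1 by -1.07 ± 0.12 (SE, 0.0059). Perp (-2.51, edgeR adjusted p = 0.189) and Fas (-3.93, 0.0861) had large differences that did not pass, and Dffb (-0.37, 0.637) had the smallest. The 3 calls did not hold without either WT vehicle library. Which of the 10 genes passed, and how many of all genes did, changed with the library left out. The log2 value then ran from -3.43 to -2.10 for Bbc3, -1.98 to -1.23 for Tnfrsf10b and -1.10 to -1.04 for Apaf1. DESeq2 called 6 genes lower, beside 2.67% of all genes called lower and 1.91% higher. In the blocked fit 9 genes were called lower, all but Dffb, beside 6.44% of all genes called lower and 5.61% higher. Its p-values leave out the difference in level between the p53 KO lines, which bears on a comparison with WT, so they overstate the precision. The added genes were Perp (log2 -2.96, edgeR adjusted p = 3.22e-08), Fas (-4.41, 3.61e-05), Pmaip1 (-1.24, 2.36e-05), Pidd1 (-1.19, 0.000256), Aen (-0.90, 0.000369) and Bax (-0.40, 0.0126).

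With drug, all 10 genes were lower in p53 KO than in WT, beside 22.0% of all genes called lower and 21.7% called higher. The log2 difference ran from -1.12 ± 0.17 (SE) for Bax to -5.91 ± 0.62 (SE) for Fas, with edgeR adjusted p from 7.60e-06 (Apaf1) to 0.00133 (Pidd1). Perp stood at -4.91, Pmaip1 at -4.21, Bbc3 at -3.35, Tnfrsf10b at -3.05, Apaf1 at -2.89, Dffb at -2.84, Pidd1 at -2.21 and Aen at -1.37. The median was -2.97 over the 10 genes and 0.02 over all genes. No library of p53 KO with drug reached the level of any WT library with drug for any of the 10 genes. The share of all genes that lie apart in this way was not counted. This comparison shares its WT drug libraries with the WT response.

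**Figure D4:**
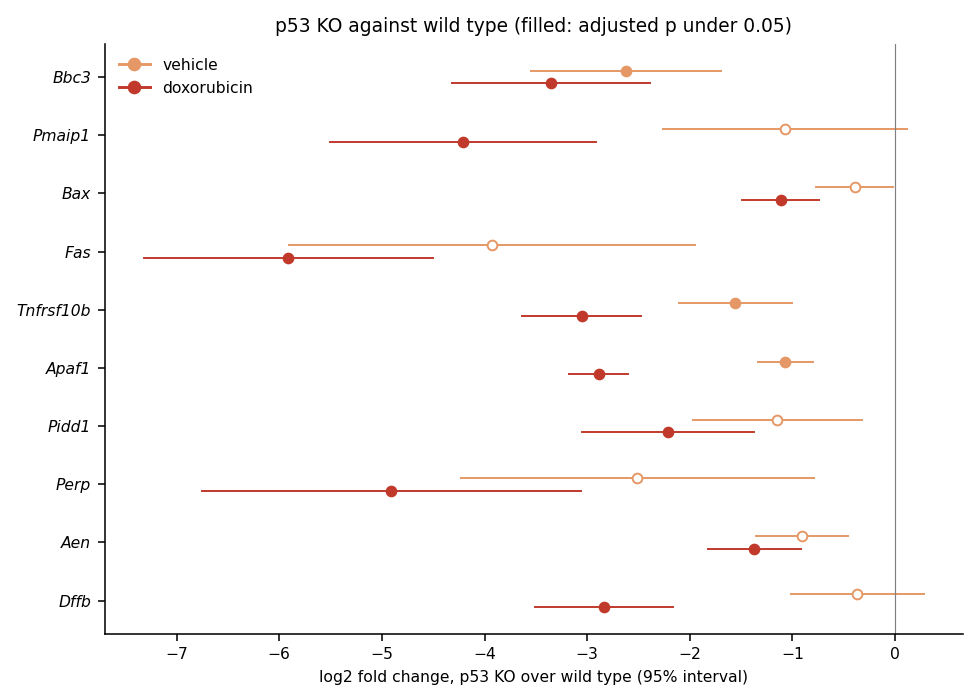
Level in p53 KO over WT as log2 fold change with its 95% interval, for each gene, under vehicle and under doxorubicin. Filled points have an adjusted p under 0.05: Bbc3, Tnfrsf10b and Apaf1 under vehicle and all 10 genes under drug.

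In cells without Dux, doxorubicin raised 8 genes, all 8 of them called in WT too. None was called lower, beside 14.5% of all genes called higher and 11.9% lower. The median log2 fold change was 1.81 over the 10 genes and 0.00 over all genes. Levels follow as vehicle line 1, vehicle line 2 (recovered), drug line 1 and drug line 2.

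Fas measured 0.349, 0.463, 56.2 and 55.1 CPM, a rise of 158-fold (95% interval 37.3 to 667, edgeR adjusted p = 0.000714) from 18 counts in the 1 vehicle library tested. Perp measured 9.20, 21.3, 187 and 205 CPM, a rise of 21.3-fold (3.94 to 115, edgeR adjusted p = 0.0159) that was 12.8-fold with the recovered vehicle library in the fit. Pmaip1 measured 16.6, 21.1, 227 and 207 CPM, a rise of 13.1-fold (4.01 to 42.7, edgeR adjusted p = 0.00689). The drug libraries lay close together for all 3 genes, while the vehicle level of Perp in line 1 was 0.432 times that in line 2.

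Dffb measured 10.4, 13.3, 72.9 and 85.6 CPM, a rise of 7.58-fold (edgeR adjusted p = 0.001). Apaf1 measured 62.1, 51.3, 215 and 208 CPM, a rise of 3.40-fold (edgeR adjusted p = 0.000203). Pidd1 measured 29.4, 31.1, 111 and 102 CPM, a rise of 3.63-fold (edgeR adjusted p = 0.0186). Their fitted vehicle levels in Dux KO were 0.996 (Dffb), 0.953 (Apaf1) and 1.03 (Pidd1) times those in WT.

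Tnfrsf10b measured 17.4, 13.9, 46.9 and 57.7 CPM, a rise of 3.01-fold (edgeR adjusted p = 0.00555). Aen measured 114, 156, 239 and 223 CPM, a rise of 2.03-fold (edgeR adjusted p = 0.0167). Bax measured 168, 288, 186 and 193 CPM, and its fold of 1.12 (95% interval 0.817 to 1.55, edgeR adjusted p = 0.589) did not pass. The Bax vehicle lines lay on either side of the drug libraries, and with the recovered library in the fit the log2 value turned from 0.17 to -0.28.

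Bbc3 measured 18.8, 27.2, 53.2 and 54.1 CPM, and both drug libraries were above both vehicle libraries. The fold was 2.85 (95% interval 1.32 to 6.19) and narrowly missed the threshold (edgeR adjusted p = 0.0505). With the recovered library the fold was 2.32 and passed (edgeR adjusted p = 0.0318). The blocked fit of 11 libraries gave 2.83, which comes from line 1 alone. Without Dux KO drug library 2, 5 genes were called: Aen (edgeR adjusted p = 0.0534), Pidd1 (0.0582) and Perp (0.0534) were lost, and Aen (0.0651) and Pidd1 (0.0636) were also lost without drug library 1.

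No gene's response was called different between Dux KO and WT, beside 2.10% of all genes called higher and 3.15% lower. Limma on log2(FPKM + 1), which has both Dux KO vehicle libraries, called 1 of the 10 genes. It called 852 of 14614 genes higher and 944 lower. The Bbc3 interaction was 1.42 ± 0.61 (SE, log2, 95% interval 0.04 to 2.80, edgeR adjusted p = 0.212) and that of Fas 2.13 ± 0.95 (SE, -0.02 to 4.28, 0.227). The Apaf1 interaction was -0.04 ± 0.18 (SE, -0.45 to 0.38), the narrowest of the 10. In the blocked fit the interaction was called higher for Bbc3 (log2 1.41, edgeR adjusted p = 0.00095), Fas (2.15, 0.00266) and Perp (1.02, 0.00169), beside 12.1% of all genes called higher and 8.44% lower. Perp no longer passed once the recovered library was added (log2 0.45, edgeR adjusted p = 0.347), when 7.17% of all genes were called higher and 6.89% lower.

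Under vehicle no gene was called different between Dux KO and WT, beside 0.656% of all genes called higher and 0.346% lower. The Fas difference was log2 -2.22 ± 0.83 (SE), from the lone Dux KO vehicle library tested. Limma on log2(FPKM + 1), which has both Dux KO vehicle libraries, called 0 of the 10 genes. It called 331 of 14614 genes higher and 58 lower. In the blocked fit Fas (-2.23, edgeR adjusted p = 0.00309), Perp (-1.53, 0.000158) and Pmaip1 (-0.61, 0.0239) were called lower, beside 5.22% of all genes called lower and 5.31% higher. With the recovered library added to the blocked fit, Pmaip1 gave way to Tnfrsf10b (-0.78, edgeR adjusted p = 0.0204), Perp was at -0.96 (0.0175), and 4.50% of all genes were called lower and 6.66% higher.

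Under drug again no gene was called different between Dux KO and WT, beside 15.6% of all genes called higher and 14.5% lower. At an unadjusted p under 0.05 edgeR had 0 genes, DESeq2 1 and limma on log2(FPKM + 1) 2, and after adjustment DESeq2 called 0 and limma 1. That limma fit called 3817 of 14614 genes higher and 1570 lower, and DESeq2 called 4208 of 28643 higher and 4927 lower. How many of all genes passed without adjustment was not counted. Pmaip1 stood at 227 and 207 CPM against 406 and 435 in WT (log2 -0.96 ± 0.50, SE, edgeR adjusted p = 0.182), and Bbc3 at 53.2 and 54.1 against 29.4 and 30.1 (0.85 ± 0.38, SE, 0.119). In the blocked fit Bbc3 (0.85, edgeR adjusted p = 0.000139), Pidd1 (0.45, 0.0136) and Aen (0.33, 0.0317) were called higher, and Pmaip1 (-0.96, 9.03e-06) and Perp (-0.51, 0.000768) lower. Those 3 and 2 of 10 stand beside 25.6% of all genes called higher and 24.5% lower in that fit. With the recovered library added to the blocked fit, Bbc3, Pidd1 and Pmaip1 were called, beside 22.3% of all genes called higher and 21.7% lower. With or without that library, blocked p-values against WT leave out the difference in level between the Dux KO lines and overstate the precision. In the authors' deposited table the same contrast was 0.83 for Bbc3 (adjusted p = 6.27e-09), -0.97 for Pmaip1 (3.05e-18), -0.53 for Perp (1.82e-05), 0.43 for Pidd1 (0.00448) and 0.31 for Aen (0.0118). Fas (log2 -0.09), Apaf1 (-0.11) and Dffb (0.07) differed by less than their standard errors in the edgeR fit.

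Around these 10 genes, the rest of the apoptosis machinery was read from lists of 39 genes. In WT cells 9 of the 39 rose and 13 fell with doxorubicin, with a median log2 fold change of -0.23, beside 8 and 0 of the 10 death effectors and 29.0% and 23.4% of all genes. In p53 KO 3 rose and 3 fell, beside 9.31% and 8.09% of all genes, and in Dux KO 5 rose and 7 fell, beside 14.5% and 11.9%. The plot of WT responses by list shows them side by side.

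Of 5 anti-death BCL2 genes, 3 rose and 1 fell in WT, where 29.0% of all genes were called higher and 23.4% lower. Bcl2, the founding anti-death gene, went from 8 and 6 counts to 30 and 38 (log2 2.04, edgeR adjusted p = 0.0175), and Bcl2l2 from 21.5 and 25.7 CPM to 10.1 and 7.98 (-1.38, 0.000346). Of 8 other pro-death BCL2 genes, 2 rose and 3 fell. Bak1, the second pore former beside Bax, went from 1603 and 1663 counts to 342 and 354 (-2.45, 1.99e-05), and the BH3-only gene Bik from 0.622 and 0.673 CPM to 3.22 and 1.79 (1.95, 0.0124). The Bak1 response was smaller in p53 KO (interaction 2.20, edgeR adjusted p = 0.000827) and in Dux KO (1.41, 0.0287).

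Of 11 genes of the mitochondrial arm and the caspases, 6 fell and none rose in WT, beside 23.4% of all genes called lower and 29.0% higher. Casp9, which Apaf1 activates, went from 20.7 and 23.5 CPM to 9.11 and 6.85 (log2 -1.47, edgeR adjusted p = 0.00026). In p53 KO none of the 11 was called, beside 9.31% of all genes called higher and 8.09% lower. The response of Casp9 in p53 KO differed from that of WT (interaction 1.96, edgeR adjusted p = 0.00148). Apaf1 and Casp9, partners in the apoptosome, thus moved in opposite directions in WT cells.

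Of 11 genes of the receptor arm, 3 rose and 1 fell in WT, beside 29.0% of all genes called higher and 23.4% lower. The median log2 of the 11 was 0.34 and was the same with Fasl at its bound. Fasl, the ligand of Fas, had 0 and 0 counts in vehicle and 11 and 6 with drug, at least 2.42-fold higher when vehicle is set to a floor of 3 counts per library. Tnfrsf23, a decoy receptor for TRAIL, went from 0.622 and 0.561 CPM to 5.57 and 6.98 (log2 3.40, edgeR adjusted p = 5.07e-05). It also rose in p53 KO (log2 2.32, edgeR adjusted p = 0.00378) and in Dux KO (2.06, 0.00567). Of 4 nuclear genes, 1 rose and 2 fell in WT, beside the same shares of all genes. Dffa, the inhibitor and partner of Dffb, rose by 0.75 on the log2 scale (edgeR adjusted p = 0.0368), Aifm1 went from 112 and 119 CPM to 33.7 and 32.0 (-1.82, 1.55e-05), and Parp1 from 573 and 574 CPM to 263 and 260 (-1.13, 0.0002). Dffa was added to the genes named by rule because of its tie to Dffb, after its value was seen.

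**Figure D5:**
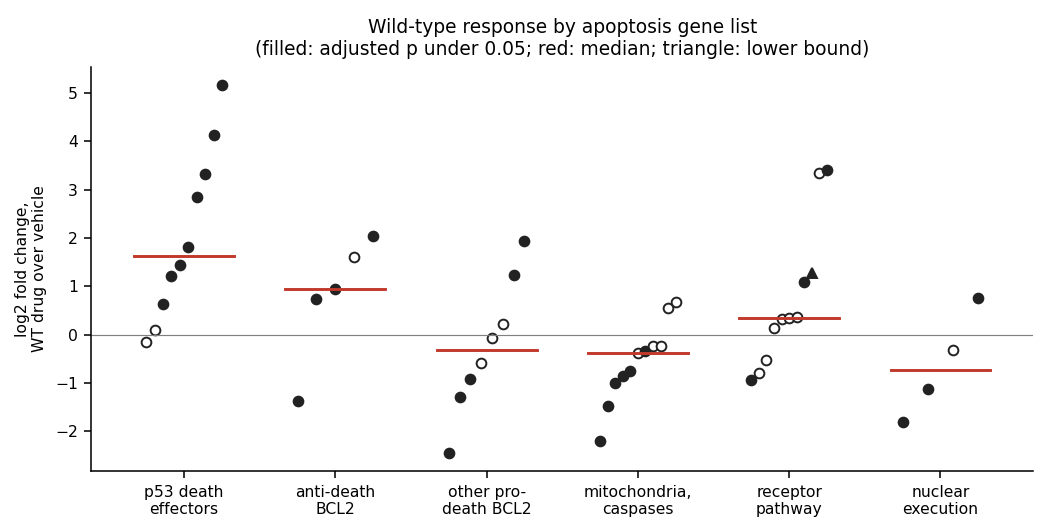
WT response to doxorubicin, as log2 fold change drug over vehicle, of the 10 death effectors and of 5 other apoptosis lists. Filled points have an adjusted p under 0.05, red lines are medians and the triangle is the lower bound for Fasl. The medians are 1.63, 0.94, -0.33, -0.37, 0.34 and -0.72 from left to right.

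Of 6 genes in a list of p53 itself and p53 targets with no death role, 3 rose and 1 fell in WT. Of all genes, 29.0% were called higher and 23.4% lower. Mdm2, the ligase that degrades p53, went from 161 and 148 CPM to 950 and 947 (log2 2.62, edgeR adjusted p = 8.64e-06), and Ppm1d, a phosphatase that damps the pathway, from 28.3 and 26.7 CPM to 87.0 and 81.2 (1.61, 2.57e-05). In p53 KO Mdm2 measured 44.7 and 49.2 CPM in vehicle and 69.8 and 52.4 CPM with drug, and its interaction was -2.23 (edgeR adjusted p = 0.000391).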

How the data were processed

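The 12 libraries were grouped by their labels into 3 genotypes, each with vehicle or drug. The authors deposited whole-number counts per Ensembl gene and FPKM per gene. Beside the FPKM stand log2 fold changes, their standard errors and adjusted p-values that the authors deposited. The submitters' processing notes name TopHat2, DESeq, DESeq2 and mm10; which counter, annotation, versions and strand option were used is not given in the sources used here. Group averages in 6 FPKM columns were left aside. Gene names and positions came from GENCODE M21, where 54409 of 54532 identifiers were found. Count and FPKM together imply a length within 1% of the whole gene span for 98.1% of 6318 genes, so intronic reads may be counted, and overlapping or antisense genes may share reads.

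The count column of Dux KO vehicle library 2 matched Dux KO drug library 1 in every gene, and its log2 ratio of counts to FPKM had an SD of 0.802 on its own FPKM and 0.0004 on that of the drug library. Its reads were recovered from FPKM: 99.85% of 3296 low values came out whole (within 0.15 read), for a total of 55640321 reads. Checked on the libraries whose counts are known, the steps placed at least 96.26% of genes within 1 read or 1%. The recovered library entered alternatives only, and its CPM has its own TMM factor.

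The test on the counts of 11 libraries was edgeR 4.0.16 (R 4.3.3) with TMM, filterByExpr (minimum count 10), a mean per group, quasi-likelihood tests with 5 residual degrees of freedom and Benjamini-Hochberg adjustment over 28643 genes, called under 0.05. Between 26.4% and 33.4% of counts of at least 500 were odd, so counts are not independent single reads. Counting intervals treat them as such, so they may be too narrow even for counting error, and they cover no other spread. The fitting steps were tested on simulated counts. Alternatives were RLE scaling, no TMM, no count filter, DESeq2 1.42.0, limma 3.58.1 on log2(FPKM + 1) with genes at 1 FPKM or more in 2 libraries, on log2(FPKM + 0.1) or without that filter, the recovered library, a replicate block and leaving out each of 10 libraries.

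The replicate numbers pair the knockout libraries because the titles give same-numbered libraries the same line. Deviations from the group means of same-numbered libraries correlated at 0.668 in p53 KO and 0.211 in Dux KO over 28643 genes, the latter with the recovered library. WT libraries carry no usable number and were called a and b.

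The 10 genes, the lists and the tests were chosen with earlier results of these data known. Named from each other list were the 2 genes with the largest change among those called in WT. 1 gene taken by that rule is not reported here. The design text calls the duplicates biological.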

Additional observations from a re-analysis of the deposited data

Results flagged for a closer look

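For 4 of the 10 genes the response to doxorubicin differed between p53 KO and WT cells by the test of the difference itself. Of all genes, 10.3% were called negative and 9.90% positive in that test. The log2 difference of the responses, p53 KO minus WT, was -3.14 for Pmaip1, -1.50 for Tnfrsf10b, -1.82 for Apaf1 and -2.47 for Dffb. In all 4 genes both WT libraries with drug lay above both WT vehicle libraries. The 4 were picked by a test on these same libraries, so this describes them and adds no support. The share of all genes that lie apart in this way was not counted. In p53 KO the drug and vehicle libraries overlapped for each of the 4 genes when the lines were pooled. Within a line Pmaip1 was higher with drug in both, by 2.11 and 1.63 times, and its p53 KO response was called with the line as a block (log2 0.91, edgeR adjusted p = 0.000101).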

How the results depend on the processing

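Of 90 values of single genes, 35 were called. Over 20 alternatives these gave 700 values, of which 648 stayed called in the same direction, 52 were no longer called and 0 changed sign. Of 1100 alternative values of the genes not called, 106 became called and 70 changed sign, none of which was called. All 10 genes remained lower in p53 KO than in WT under drug in every alternative. Dux KO vehicle library 1 was not left out, since no tested library of its group would remain. Leaving out a library also changed how many of all genes were called, so shifts in count are not particular to the 10 genes. With 2 libraries per group the precision is limited, and depth limits Fas in p53 KO, at 2 to 50 counts. A cause for a call that changed was not tested. Under RLE the median over all genes shifted by 0.100 in the WT response, -0.122 in the p53 interaction, -0.114 in p53 KO against WT with drug and -0.103 in Dux KO against WT with drug, and by 0.125, 0.207, 0.147 and 0.037 without TMM, which also moved the p53 KO response by 0.335 and the Dux KO response by 0.204.

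With the replicate block, which pairs the knockout lines, 5 genes were called in the p53 KO response, beside 21.6% of all genes called higher and 16.4% lower. In the p53 interaction 10 were called, beside 19.8% and 17.9%. Under vehicle 9 were called in p53 KO against WT, beside 5.61% and 6.44%. Under drug 5 were called in Dux KO against WT, beside 25.6% and 24.5%. With the block and the recovered library 5, 8, 8 and 3 of the 10 genes were called. In the same order, 4906, 4499, 669 and 6023 of 26974 genes were called higher there. Called lower were 3398, 4209, 1158 and 5846. That fit also called 2 genes in the Dux interaction, beside 7.17% of all genes called higher and 6.89% lower. In Dux KO against WT under vehicle it called 3, beside 6.66% and 4.50%. Without the recovered library the block leaves a lone Dux KO vehicle library, so no counts are given for contrasts that use it. Beyond these and Bbc3 in the Dux KO response, the block changed no other call. DESeq2 called 6 genes in p53 KO against WT and 1 in Dux KO against WT under vehicle, and in both it also called more of all genes than edgeR did. On log2(FPKM + 1), with or without the filter, limma called 0 genes in the p53 KO response and 1 in the Dux interaction. It also called 1 in p53 KO against WT under vehicle and 1 in Dux KO against WT under drug. With the filter, limma called 1780 of 14614 genes higher and 449 lower in the p53 KO response. In p53 KO against WT under vehicle it called 5 higher and 38 lower. On log2(FPKM + 0.1) limma called 0 of the 10 genes in the p53 KO response. Leaving out 1 library gave 5 to 8 genes in the WT response, 1 to 6 in the p53 KO response, 5 to 9 in the Dux KO response, 2 to 9 in the p53 interaction, 0 to 1 in the Dux interaction, 0 to 7 in p53 KO against WT under vehicle, 0 to 1 in Dux KO against WT under vehicle and 0 to 2 under drug. The 6 in the p53 KO response came without p53 KO drug library 2, the 9 in the p53 interaction without p53 KO drug library 1, and 2 genes were left in the interaction without WT vehicle b or WT drug b. In the Dux interaction and in Dux KO against WT under vehicle, 1 gene was called without either p53 KO drug library. In Dux KO against WT under drug, 2 were called without either p53 KO drug library and 1 without either p53 KO vehicle library.

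Changes of sign under settings that kept every tested library were as follows. In the p53 KO response, Tnfrsf10b (-0.29) was 0.047 without TMM and 0.012 (both filters) and 0.047 on FPKM with pseudocounts 1 and 0.1, and Apaf1 (-0.015) was 0.32, 0.077 and 0.23. Bax was -0.28 in the Dux KO response, -0.13 in the Dux interaction and 0.19 against WT under vehicle with the recovered library, and -0.23, -0.084 and 0.15 with the block added. In the Dux interaction, Apaf1 was 0.055 without TMM, 0.077 with the recovered library, 0.083 with the block added, and 0.13 and 0.30 on FPKM, and Dffb was -0.048 with the block, -0.13 with the recovered library and -0.12 with both. In Dux KO against WT under vehicle, Bax was 0.020 and 0.019 on FPKM. Pidd1 was -0.017 without TMM, -0.022 with the block, and -0.036 and -0.042 on FPKM. Aen was 0.19 with the recovered library, 0.18 with the block added, and 0.050 and 0.055 on FPKM. Dffb was 0.010 without the count filter, 0.11 with the block, 0.17 with the recovered library, 0.16 with both, and 0.025 and 0.043 on FPKM. In Dux KO against WT under drug, RLE and DESeq2 gave -0.027 for Bax and -0.035 for Dffb, and FPKM gave 0.021 and 0.031 for Fas and 0.0092 and 0.013 for Apaf1.

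Leaving out 1 library at a time, the log2 value ran from -0.013 to 0.18 for Bbc3 in the WT response. In the p53 KO response it ran from -1.23 to 0.16 for Bbc3, -0.14 to 1.83 for Pmaip1, -0.62 to 0.13 for Tnfrsf10b, -0.14 to 0.10 for Apaf1, -0.38 to 0.88 for Pidd1, -0.63 to 2.66 for Perp, -0.20 to 0.48 for Aen and -0.25 to 0.81 for Dffb. The sign of Pmaip1, Pidd1, Perp, Aen and Dffb turned without p53 KO drug library 1. It ran from -1.32 to 0.070 for Bbc3 in the p53 interaction, and in the Dux interaction from -0.064 to 0.046 for Apaf1 and -0.051 to 0.18 for Dffb. In Dux KO against WT under vehicle it ran from -0.043 to 0.12 for Pidd1, -0.12 to 0.024 for Aen and -0.039 to 0.027 for Dffb, and under drug from -0.057 to 0.17 for Dffb.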

Other observations

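Genes outside the apoptosis lists followed the death effectors closely across the 11 libraries. Likeness was measured as the root mean square difference of centred log2 CPM, with smaller values more alike, and as a description over libraries that share their groups. The nearest to the mean profile of the 10 genes was Panx1, a membrane channel, at 0.190, followed by Pitpnm2 (0.240), Mapkapk3 (0.246), Gm10532 (0.272) and Tmem43 (0.279). Panx1 measured 18.1 and 18.9 CPM in WT vehicle, 92.0 and 84.4 CPM in WT with drug, 8.70 and 5.53 CPM in p53 KO vehicle, and 17.4 and 5.495 CPM in p53 KO with drug. In Dux KO it measured 11.8 and 15.4 CPM in vehicle, the second value recovered from FPKM, and 93.4 and 97.2 CPM with drug. The 5 were picked as the nearest of all tested genes outside the 10. Of the 10 genes themselves, Pidd1 (0.404), Apaf1 (0.412), Dffb (0.454) and Tnfrsf10b (0.475) were nearest to their mean profile and Fas (1.97) and Bax (1.30) farthest.

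Taken one by one, the nearest gene was Psrc1 for Bbc3 (0.301), Rhbg for Pmaip1 (0.317), Serpine2 for Fas (0.475), Lrrc28 for Tnfrsf10b (0.171), Aldh4a1 for Apaf1 (0.140), Trim7 for Pidd1 (0.138), Hr for Perp (0.328), 1700120G11Rik for Aen (0.105) and Cdc42bpg for Dffb (0.206). For Bax it was the overlapping gene Gm45808 (0.115), with which it may share reads.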
